A study of Homo sapiens with 6 samples.

Results

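STRAP, CASP8, ATG7 and PICALM are 4 human genes that have been named as splicing or 3′ end processing targets of U2AF1. They were examined here through their splice junctions, which are the introns that sequencing reads were found to span. A junction belonged to a gene when both of its ends lay inside that gene's window in hg19 on the gene's strand. The windows held 290 of the 780566 junctions listed in the series: 28 in STRAP, 54 in CASP8, 95 in ATG7 and 113 in PICALM. Of the 290, 118 were annotated in the files and 172 were not. A uniquely mapped read supported 268 of them in some library, and the other 22 had multi-mapped reads only.

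The libraries came from K562, a human chronic myeloid leukaemia line with erythroid features. One group of 3 libraries carried a knock-in of wild-type U2AF1. The other 3 had the genotype U2AF1 S34F, in which phenylalanine replaces serine in a zinc finger of the protein. The labels do not say whether a group was 1 clone, how many alleles carried the substitution, or whether the 3 libraries of a group were separate cultures, so p-values measure the spread between these libraries only. Poly(A)+ RNA was sequenced as paired-end reads, and the libraries held 18074706 to 39279169 uniquely mapped spliced reads each. Markers of K562, and other genes of the pathways named below, were not analysed here, because the gene coordinates at hand belong to another genome build.

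U2AF1 is the small subunit of the U2 auxiliary factor. With its large partner U2AF2, which binds the polypyrimidine tract, it marks the 3′ end of an intron by contacting the AG dinucleotide of the acceptor (the 3′ splice site). The S34F substitution is recurrent in myeloid neoplasms and lung cancer and is known for altering which acceptors are recognised according to the base before the AG. A change in acceptor choice can move the start of an exon, or leave the exon out when its acceptor is passed over.

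All 4 windows lay on the chromosome that RefSeq gives for the gene. The STRAP window ran from 16035200 to 16056500 on the plus strand of chromosome 12 and the CASP8 window from 202098100 to 202152500 on the plus strand of chromosome 2. The ATG7 window ran from 11313900 to 11599200 on the plus strand of chromosome 3, and that of PICALM from 85668100 to 85781000 on the minus strand of chromosome 11. Window lengths of 21301, 54401 and 112901 nt for STRAP, CASP8 and PICALM compare with RefSeq gene lengths of 21092, 54249 and 112686 nt in GRCh38. The ATG7 window, at 285301 nt, was shorter than the RefSeq gene of 303957 nt, so junctions of longer ATG7 models may lie outside it. Splice sites are named by their hg19 position at the end of the intron.

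The amount of spliced RNA from each gene was compared first, as the unique junction reads of the gene scaled to 1000000 unique spliced reads of the library (RPM). These sums depend on how many introns a gene has, so they are compared between libraries and not between genes. In a bulk library, fewer cells holding a transcript and less of it per cell cannot be told apart. None of the 4 genes could pass the 0.05 threshold here, because a two-sided exact permutation test of 3 against 3 libraries gives no p below 0.1.

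STRAP, a WD-repeat protein that restrains TGF-β signalling and is a component of the SMN complex, had 162, 328 and 369 RPM in wild-type replicates 1, 2 and 3. Its S34F libraries had 233, 137 and 223. The groups overlapped, since wild-type replicate 1 lay below 2 of the S34F libraries. The means were 286 ± 110 in wild type and 198 ± 53.0 in S34F (SD, n = 3 each; exact permutation p = 0.3).

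CASP8, the initiator caspase that death receptors activate, had 15.3, 16.1 and 11.5 RPM in wild type against 18.1, 18.3 and 17.1 in S34F. All 3 S34F libraries lay above all 3 wild-type libraries, with means of 17.8 ± 0.646 and 14.3 ± 2.45 (n = 3 each; ratio 1.25; exact permutation p = 0.1, the smallest possible). It was the 1 gene of the 4 whose groups did not overlap; a background over all genes was not computed for such sums. With 223 to 672 reads per library, CASP8 was the most thinly covered of the 4.

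ATG7, the E1-like enzyme that starts both conjugation reactions of autophagosome formation, had 40.9, 42.5 and 41.6 RPM in wild type against 46.4, 32.7 and 44.4 in S34F (means 41.7 ± 0.832 and 41.2 ± 7.40, n = 3 each; exact permutation p = 1). PICALM, a clathrin adaptor of endocytosis that is also the partner of AF10 in a leukaemia fusion, had 510.5, 493 and 372 in wild type against 516, 378 and 456 in S34F (458 ± 75.2 and 449.9 ± 69.4, n = 3 each; exact permutation p = 1). The groups overlapped in both genes. In both, the direction of the small difference in means depended on single libraries: without S34F replicate 2 it turned from -0.490 to 3.74 RPM in ATG7 and from -8.56 to 27.6 in PICALM, and without wild-type replicate 1 or 2 that of PICALM turned to 17.5 or 8.52.

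**Figure D1:**
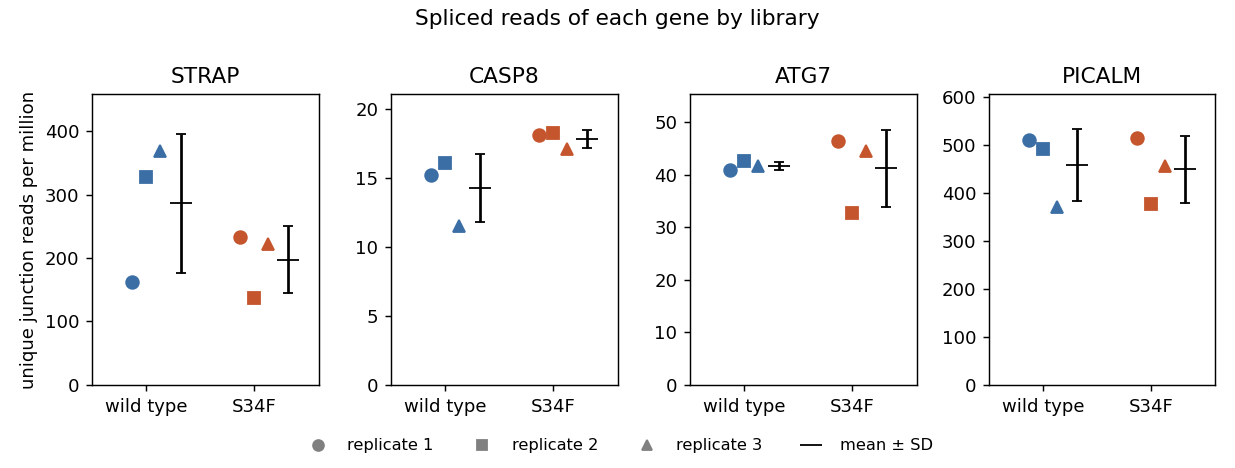
Unique junction reads of each gene in RPM (linear axis from 0), with 1 point per library, marker shape for the replicate number, and the mean ± SD of 3 libraries beside each group. The S34F libraries lie above the wild-type libraries in CASP8 (17.1 to 18.3 against 11.5 to 16.1), and the groups overlap in the other 3 genes.

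Splice site choice was then asked in 3 ways. Acceptor usage is the share of the reads leaving a 5′ splice site that go to a given acceptor. Competing acceptors are 2 acceptors at most 100 nt apart that are joined to the same 5′ splice site, and the value is the share of the upstream one. Cassette inclusion is the mean of the 2 junctions that include an exon, divided by that mean plus the junction that skips it. Each class was fitted over the whole series with edgeR's quasi-likelihood test on the 2 counts of each event, which leaves out transcript abundance. A call required both an adjusted p (Benjamini-Hochberg over the whole class) under 0.05 and a gap of 10 percentage points or more between the mean shares. Events were tested where each library had 20 reads or more and each side 10 in total, so a junction with few reads in both groups was not tested.

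In acceptor usage 52 of the 290 junctions were tested and 4 were called, 2 in STRAP and 2 in PICALM, where 2.11% of the 51522 junctions tested in the series were called. These 4 are 2 pairs of alternatives, not 4 separate events. The median absolute difference was 1.6 percentage points over the 52 junctions and 1.48 over all tested. The groups did not overlap in 15 of the 52, against 25.2% of all tested. Among competing acceptors 1 of 4 pairs was called, in PICALM (2.85% of 5684 pairs in the series), and among cassette exons 1 of 24, in STRAP (2.49% of 19137). Seen from the other end, as the 5′ splice site joined to a given acceptor, 2 of 47 junctions were called (0.934% of 48269), and these were the STRAP reads of the same exon. The 5′ splice site count was 0 without S34F replicate 3, where both STRAP junctions had an edgeR adjusted p of 0.0778, and 4 without wild-type replicate 1, where 2 CASP8 junctions described below were added. In the series these settings called 4 of 39059 and 1210 of 43726 junctions. CASP8 was below the read minimum at the sites where its largest shift lay and is described through summed reads.

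STRAP showed lower inclusion of 1 exon in S34F. The exon has 136 nt and runs from 16036475 to 16036610. Its inclusion was 88.3%, 95.4% and 96.5% in wild-type replicates 1 to 3 and 76.9%, 68.7% and 73.0% in the S34F libraries. Every S34F library thus lay below every wild-type library, a separation in either direction that 29.4% of all tested exons showed, and wild-type replicate 1 was the wild-type library nearest to them. Mean inclusion fell from 93.4% ± 4.43 to 72.9% ± 4.11 (n = 3 each), a difference of -20.5 percentage points (log2 odds -2.55, SE 0.42, edgeR adjusted p = 0.00349; 1.57% of tested exons were called as lower), with 322.5 to 1118.5 reads per library (the mean of both inclusion junctions plus the skipping junction). The exon length is not a multiple of 3; it leaves a remainder of 1.

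The skipping junction joined the 5′ splice site at 16035754 directly to the acceptor at 16042861, and all 3 junctions of the event were annotated. It took 60 of 539 reads leaving that site in wild-type replicate 1 (11.1%, 95% Clopper-Pearson interval 8.60% to 14.1%), 44 of 1011 in replicate 2 (4.35%, 3.18% to 5.80%) and 29 of 867 in replicate 3 (3.34%, 2.25% to 4.77%). In S34F it took 143 of 677 (21.1%, 18.1% to 24.4%), 101 of 350 (28.9%, 24.2% to 33.9%) and 302 of 1191 (25.4%, 22.9% to 27.9%). These intervals cover counting error only, and wild-type replicate 1 lay above the intervals of the other 2 wild-type libraries. The mean share of the skipping acceptor rose from 6.28% ± 4.24 to 25.1% ± 3.87, which is 4.00 times as high (log2 odds 2.48, SE 0.40, edgeR adjusted p = 0.0012), and that of the exon's own acceptor at 16036474 fell, with a mean of 93.3% ± 3.99 in wild type against 73.5% ± 3.71 in the S34F libraries (log2 odds -2.44, SE 0.39, edgeR adjusted p = 0.000962).

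Both the size and the call depended on single libraries. Without wild-type replicate 1 the wild-type mean of the skipping acceptor was 3.85% and the S34F share 6.53 times as high. The call of that acceptor was lost without S34F replicate 3 (edgeR adjusted p = 0.0504), and limma on log2 odds called neither it (adjusted p = 0.101) nor the exon's own acceptor (0.0952). Over the series, 77 of 41558 acceptor usages were called without S34F replicate 3 and 0 of 51522 with limma. For exon inclusion the edgeR adjusted p was 0.09 without S34F replicate 3, and without S34F replicate 2 it was 0.054, with log2 odds of -2.55 and -2.41. In the series, 0 of 14623 combinations were called without S34F replicate 3 and 39 of 18143 without S34F replicate 2, against 477 of 19137 in the main fit. For this exon limma on log2 odds gave an adjusted p of 0.0768, and it called 0 of the 19137 combinations in the series.

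**Figure D2:**
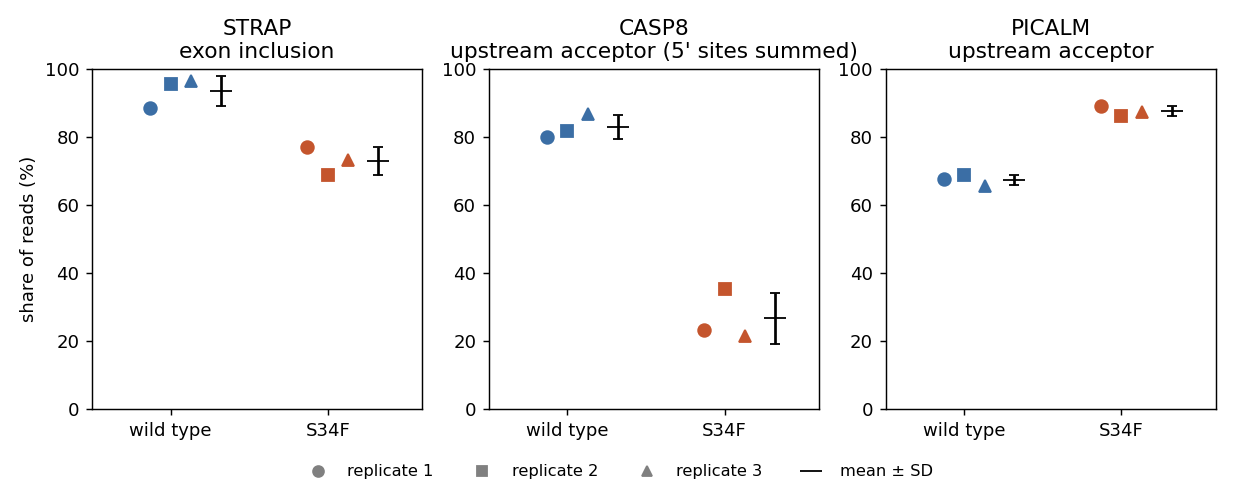
Share of reads (%, axis from 0 to 100) in each library for the 136 nt STRAP exon (inclusion), the upstream of the competing CASP8 acceptors with reads summed over 5′ splice sites, and the upstream of the competing PICALM acceptors; marker shape gives the replicate number and the bar the mean ± SD of 3 libraries. Groups do not overlap in any panel, and S34F is lower in STRAP and CASP8 and higher in PICALM.

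Junction levels show which of the STRAP reads moved. The level of an annotated junction is given as RPM. The test used its counts, with library totals scaled by edgeR's TMM (trimmed mean of M-values) factors, which ran from 0.922 to 1.07. It covered all 113065 annotated junctions that passed edgeR's expression filter, of which 0.203% were called (0.0831% higher and 0.119% lower in S34F). The STRAP skipping junction had 2.36, 1.76 and 1.5 RPM in wild type against 6.09, 5.59 and 7.69 in S34F. It rose (log2 fold change 1.75, SE 0.23, edgeR adjusted p = 0.0198) and was 1 of 2 junctions called among the 65 tested in the 4 genes. The junction into the exon had 18.8, 38.6 and 42.9 RPM in wild type against 22.3, 13.6 and 22.2 in S34F, and its log2 fold change of -0.81 did not pass (SE 0.28, edgeR adjusted p = 0.259); with no low-count filter it did (0.00261). The junction out of the exon, from 16036611 to 16042861, did not pass either (log2 fold change -0.92, SE 0.29, edgeR adjusted p = 0.222), but did with no low-count filter (0.000336). The 7 tested STRAP junctions downstream of the event had log2 fold changes of -0.64 to -0.46, and none of them was called (lowest edgeR adjusted p = 0.383). With no low-count filter the downstream junction from 16050953 to 16052837 passed (log2 fold change -0.65, edgeR adjusted p = 0.0364). That setting called 5138 of 218590 junctions in the series, against 229 of 113065 in the main fit. The call of the skipping junction was lost with the replicate number as a block (edgeR adjusted p = 0.0529), and without wild-type replicate 2 (0.153), wild-type replicate 3 (0.0973) or S34F replicate 3 (0.0706). In these settings 50, 3, 1 and 0 junctions were called in the whole series, in the same order. The log2 fold change of the skipping junction was 1.62 to 1.97 over all alternatives.

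**Figure D3:**
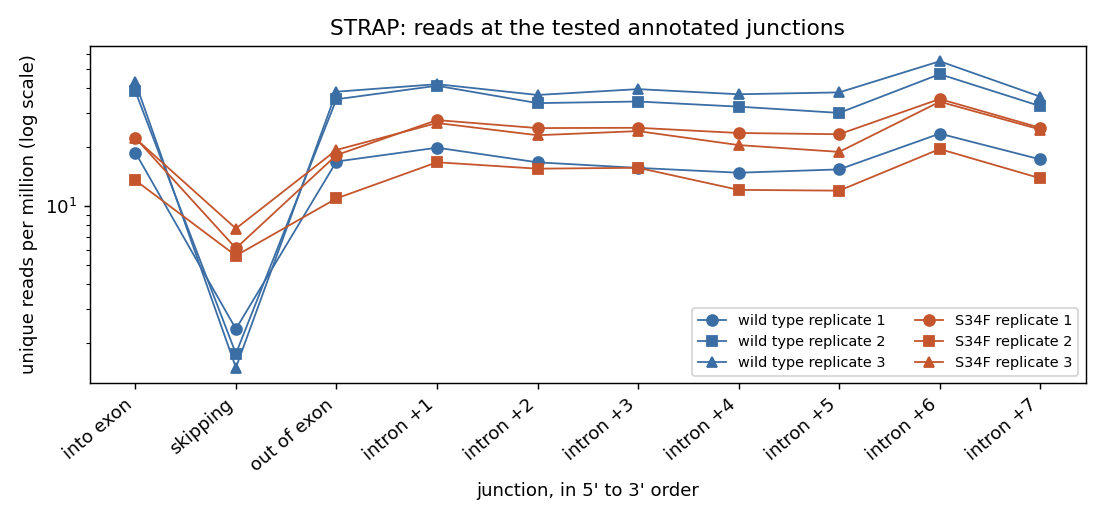
RPM (log axis) at the 10 tested annotated STRAP junctions in 5′ to 3′ order, 1 line per library; lines only join the points of a library. At the skipping junction the 3 S34F libraries (5.59 to 7.69) lie above the 3 wild-type libraries (1.5 to 2.36), while at the other 9 junctions wild-type replicates 2 and 3 are the highest libraries.

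The rest of STRAP was spliced in 1 way. Of its 9 exon forms covered by at least 20 reads in every library, 7 were included at 95% or more in all 6 libraries, and their group means differed by at most 0.24 percentage points. The other form besides the 136 nt exon was a 39 nt exon from 16036017 to 16036055, just upstream of it. Its inclusion between 16035754 and 16036474 was 0.313%, 0.62% and 0.597% in wild type against 1.96%, 2.20% and 1.91% in S34F. This difference of 1.51 percentage points passed the adjusted p threshold (log2 odds 1.82, SE 0.52, edgeR adjusted p = 0.0439) but not the minimum of 10 percentage points, and 5.5% of cassette combinations in the series passed on the p-value alone. It rests on 1 to 17 reads per junction and library. The deepest STRAP junction, from 16052988 to 16053880, had 23.5, 47.3 and 55.0 RPM in wild type against 35.3, 19.6 and 34.2 in S34F (log2 fold change -0.52, edgeR adjusted p = 0.476). At 2 further STRAP acceptors a second, unannotated acceptor lies 3 nt downstream, at 16053883 and 16055853, and neither pair was called (edgeR adjusted p = 0.574 and 0.896).

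CASP8 moved from 1 acceptor to another in S34F. The upstream acceptor at 202131183 and the downstream acceptor at 202131209 lie 26 nt apart, which is not a multiple of 3. With reads summed over the 4 5′ splice sites that join both, the upstream acceptor took 36 of 45 reads in wild-type replicate 1 (80.0%, 95% Clopper-Pearson interval 65.4% to 90.4%), 40 of 49 in replicate 2 (81.6%, 68.0% to 91.2%) and 13 of 15 in replicate 3 (86.7%, 59.5% to 98.3%). In S34F it took 7 of 30 (23.3%, 9.93% to 42.3%), 12 of 34 (35.3%, 19.7% to 53.5%) and 15 of 70 (21.4%, 12.5% to 32.9%). The lowest wild-type library lay 44.7 percentage points above the highest S34F library, and no interval of one group reached an interval of the other; groups were separate in 20.8% of all pairs summed this way.

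The mean share of the upstream CASP8 acceptor fell from 82.8% ± 3.47 to 26.7% ± 7.52 (n = 3 each), a difference of -56.1 percentage points (log2 odds -3.66, SE 0.51, edgeR adjusted p = 1.08e-07). Summing over 5′ splice sites and lowering the minimum to 10 reads per library were chosen after the counts were seen, since wild-type replicate 3 had only 15 reads here. In that fit 3.05% of 6716 pairs in the series were called (2.64% with the upstream acceptor lower), 2 of them among the 5 pairs of the 4 genes, and the CASP8 difference ranked 2 by size among the 6716. At the original minimum of 20 reads the pair was not tested. The call stood with DESeq2 (adjusted p = 0.000987), with limma on log2 odds (adjusted p = 0.0385), with the replicate block (edgeR adjusted p = 4.85e-07) and without each library in turn (edgeR log2 odds -3.95 to -3.38, adjusted p at most 0.0002).

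The shift was present at each CASP8 5′ splice site with more than a few reads. From 202098836 the upstream acceptor took 37 reads and the downstream 7 over the wild-type libraries, and 20 and 60 over the S34F libraries (84.1% and 25.0% upstream). From 202122878 the same counts stood at 28 against 7 in the wild-type libraries, then 10 against 25 in S34F (80.0% and 28.6%), and the junction to the downstream acceptor was not annotated there. From 202123106 they stood at 19 against 6 in wild type, then 3 against 12 in S34F (76.0% and 20%). From 202125337 there were 5 and 0 reads in wild type against 1 and 3 in S34F, too few to compare. These pooled counts have no replicate error, and the libraries behind them are those given above.

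Taken alone, the 5′ splice site at 202098836 missed the read minimum through wild-type replicate 3. With at least 10 reads per library, its use of the upstream acceptor fell (log2 odds -2.74, edgeR adjusted p = 0.0113) and its use of the downstream acceptor rose (2.79, edgeR adjusted p = 0.0152). Without wild-type replicate 3 the log2 odds were -3.13 and 3.02 (edgeR adjusted p = 0.00643 and 0.0212), and with no read minimum the rise at the downstream acceptor did not pass (edgeR adjusted p = 0.0728). As a level, the junction from 202098836 to 202131209 had 0.0786, 0.12 and 0.103 RPM in wild type against 0.639, 0.498 and 0.917 in S34F. Its log2 fold change of 2.71 did not pass over all junctions (SE 0.52, edgeR adjusted p = 0.0604). It did pass with no low-count filter (edgeR adjusted p = 0.0039), a setting that called 5138 of 218590 junctions in the series.

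Other alternative sites of CASP8 did not pass the test over all 6 libraries, and 2 of them did without wild-type replicate 1. A 45 nt exon from 202137621 to 202137665 was included at 80.4%, 50.5% and 60.0% in wild type against at 69.5%, 77.8% and 73.2% in S34F, so that the groups overlapped and wild-type replicate 1 was the highest library (log2 odds 0.63, SE 0.50, edgeR adjusted p = 0.48). The 106 nt exon from 202136239 to 202136344 was at 89.6%, 100% and 100% in wild type against 95%, 87.8% and 94.2% in S34F (edgeR adjusted p = 0.582). Its acceptor at 202136238 took 89.5%, 100% and 100% of the reads from 202131515 in wild type against 93.1%, 82.8% and 90.7% in S34F (log2 odds -1.56, SE 0.94, edgeR adjusted p = 0.372). Without wild-type replicate 1 that acceptor was called as lower (log2 odds -5.08, edgeR adjusted p = 0.0362). The unannotated junction from 202131515 to 202137360, which skips the exon, was then called as higher (4.95, edgeR adjusted p = 0.0452). Wild-type replicates 2 and 3 had 0 reads at this junction. The acceptor 202137360 is itself annotated as joined from 202136345, with 35, 44 and 23 reads there in wild type. The 65 nt exon from 202139612 to 202139676 was at 93.3% in wild type and 92.6% in S34F (edgeR adjusted p = 0.918). At the acceptor 202149538, the annotated 5′ splice site nearer to it, 202141828, took 35.7%, 18.3% and 6.90% in wild type against 43.5%, 51.4% and 32.8% in S34F. That difference of 22.2 percentage points did not pass (log2 odds 1.35, SE 0.56, edgeR adjusted p = 0.208), and wild-type replicate 1 lay above S34F replicate 3. Without wild-type replicate 1 it was called (log2 odds 2.09, edgeR adjusted p = 0.0336), as was the lower use of the other site, 202141692 (-2.02, edgeR adjusted p = 0.0397). Leaving out that library raised calls across the series. By 5′ splice site they went from 451 of 48269 junctions to 1210 of 43726, and in acceptor usage from 1088 of 51522 to 1932 of 46510. The deepest CASP8 junction, from 202139677 to 202141549, had 1.57, 2.17 and 1.81 RPM in wild type against 2.30, 2.27 and 2.19 in S34F (log2 fold change 0.27, edgeR adjusted p = 0.658). Of the 11 CASP8 junctions tested as levels, 8 had a positive and 3 a negative log2 fold change, and none was called.

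PICALM also changed its choice between 2 neighbouring acceptors, but towards the upstream one. On the minus strand, the acceptors at 85693047 (upstream) and 85693032 (downstream) lie 15 nt apart, both annotated, after the 5′ splice site at 85694908. They give an exon of 132 or 117 nt that begins in transcript order at 85693046 or 85693031 and ends at 85692915, so that the choice adds or removes a multiple of 3 nt. The upstream acceptor took 466 of 691 reads in wild-type replicate 1 (67.4%), 434 of 632 in replicate 2 (68.7%) and 238 of 363 in replicate 3 (65.6%). In S34F it took 587 of 659 (89.1%), 265 of 308 (86.0%) and 842 of 965 (87.3%). The range within a group was 3.11 percentage points in wild type and 3.04 in S34F, and the groups were 17.4 points apart at their nearest, where 21.1% of all tested pairs had separate groups.

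The mean share of the upstream PICALM acceptor rose from 67.2% ± 1.56 to 87.5% ± 1.53 (n = 3 each; 20.2 percentage points, log2 odds 1.78, SE 0.22, edgeR adjusted p = 2.18e-08). Among the 162 called acceptor pairs of the series, 141 moved towards the downstream and 21 towards the upstream acceptor, 0.369% of all pairs tested; the PICALM pair ranked 7 by size among those 21. DESeq2 also called it (adjusted p = 0.00937), and edgeR did with any library left out (log2 odds 1.67 to 1.85), but limma on log2 odds, which called 10 pairs in the series, did not (adjusted p = 0.0809). In acceptor usage, where all junctions of the 5′ splice site compete, the downstream acceptor had 32.7% ± 1.59 in wild type and fell to 12.5% ± 1.49 with S34F (log2 odds -1.78, SE 0.33, edgeR adjusted p = 0.00332). Without S34F replicate 3 that call was lost (edgeR adjusted p = 0.0548), where 77 of 41558 acceptor usages were called in the series.

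**Figure D4:**
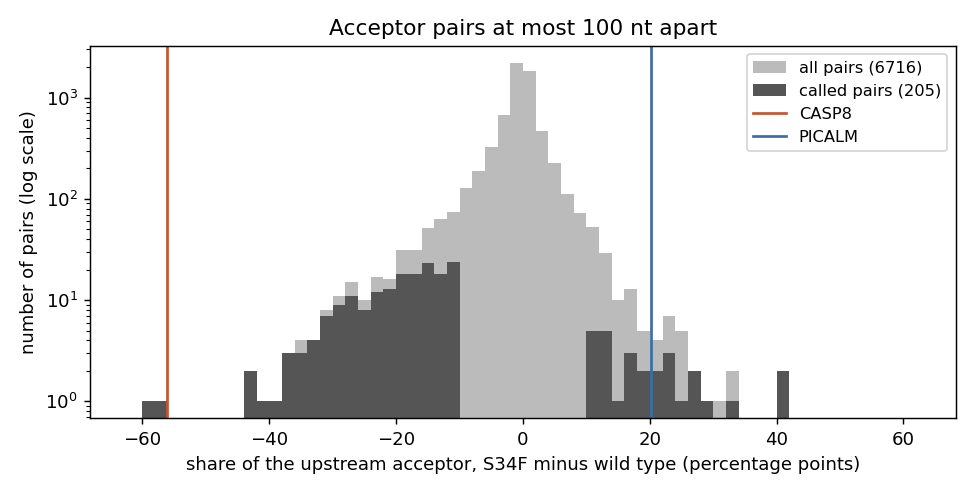
Number of acceptor pairs (log axis) by the S34F minus wild-type difference in the share of the upstream acceptor, in percentage points, for all 6716 pairs with reads summed over 5′ splice sites and for the 205 called pairs; vertical lines mark the CASP8 and PICALM pairs. CASP8 lies at -56.1 near the left end and PICALM at 20.1 on the side with fewer called pairs.

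The reads of the downstream PICALM acceptor fell as a level too. Its junction had 8.85, 7.94 and 6.45 RPM in wild type against 3.07, 2.38 and 3.13 in S34F (log2 fold change -1.46, SE 0.20, edgeR adjusted p = 0.0205). The junction to the upstream acceptor had 18.3, 17.4 and 12.3 in wild type against 25.0, 14.7 and 21.4 in S34F, with overlapping groups (log2 fold change 0.32, SE 0.21, edgeR adjusted p = 0.523). The first call was lost with the replicate block (edgeR adjusted p = 0.0559) and without wild-type replicate 2 (0.144), wild-type replicate 3 (0.0693), S34F replicate 1 (0.0627) or S34F replicate 3 (0.0787). In these settings 50, 3, 1, 59 and 0 junctions were called in the whole series, in the same order. No other junction of the 26 tested in PICALM was called; the next lowest edgeR adjusted p was 0.373.

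Other alternative sites of PICALM were not called. A 150 nt exon from 85701293 to 85701442 was included at 32.2%, 41.3% and 44.1% in wild type against at 32.8%, 30.1% and 28.9% in S34F (39.2% ± 6.23 and 30.6% ± 2.05; log2 odds -0.54, SE 0.33, edgeR adjusted p = 0.342), with wild-type replicate 1 inside the S34F range. This exon has a second acceptor 21 nt further in, at 85701422, and the upstream one of that pair took 93.2% ± 1.77 in wild type and 93.4% ± 1.63 in S34F (log2 odds -0.01, SE 0.48, edgeR adjusted p = 0.999). Included from 85701422, the exon has 129 nt, and its computed inclusion was 25.5% in wild type and 19.3% in S34F (edgeR adjusted p = 0.388). That value overstates the 129 nt form. It averages 98 reads into 85701422 with 1324 reads out of the exon, which the 150 nt form shares. Of the reads leaving 85707868, the acceptor 85701422 took 2.71% in wild type and 2.08% in S34F. The junction from 85707868 to 85695017, which skips both forms, took 58.3% ± 7.49 of the reads in wild type and 67.6% ± 0.95 in S34F. That difference did not pass (log2 odds 0.57, SE 0.33, edgeR adjusted p = 0.353), and replicate 1 of both groups was at 66.8%. The 105 nt exon from 85685751 to 85685855 was at 88.8% in wild type and 87.8% in S34F (edgeR adjusted p = 0.814). The 24 nt exon from 85689113 to 85689136 was included at 10.04%, 15.8% and 4.46% in wild type against at 10.6%, 21.4% and 13.7% in S34F (log2 odds 0.65, SE 0.45, edgeR adjusted p = 0.399), with wild-type replicate 3 the lowest library. The deepest PICALM junction, from 85692819 to 85692914, had 534 to 1492 reads per library and 36.0, 37.1 and 27.6 RPM in wild type against 39.6, 31.5 and 38.0 in S34F.

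ATG7 had no called event. It entered the list of U2AF1 targets for use of a distal polyadenylation site in S34F cells, a choice that does not appear in junction counts. All 15 acceptor usages tested, 4 cassette exons and 18 junction levels stayed short of the threshold, with lowest edgeR adjusted p-values of 0.173, 0.271 and 0.571. Its junction levels had a median log2 fold change of 0.01, with 10 above and 8 below 0, and ranged from -0.34 to 0.33. The deepest junction, from 11348535 to 11350457, had 3.34, 2.57 and 3.15 RPM in wild type against 3.58, 2.66 and 3.03 in S34F (edgeR adjusted p = 0.99). The acceptor shares rest on 22 to 129 reads per 5′ splice site and library.

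The widest ATG7 differences were at its first tested 5′ splice site, 11314117. The direct junction to 11340159 took 58.7%, 72.7% and 66.7% of its reads in wild type and 76.9%, 81.3% and 79.6% in S34F (log2 odds 0.97, SE 0.53, edgeR adjusted p = 0.318). The acceptor at 11323878 took 13.0%, 15.9% and 11.1% in wild type against 2.56%, 6.25% and 4.08% in S34F (log2 odds -1.78, SE 0.75, edgeR adjusted p = 0.173). The groups did not overlap at either acceptor, but these shares rest on 27 to 49 reads per library. The 246 nt exon that starts at this acceptor, from 11323879 to 11324124, was included at 19.4%, 15.8% and 21.7% in wild type against at 9.09%, 10.3% and 8.24% in S34F (log2 odds -1.05, SE 0.61, edgeR adjusted p = 0.307). The 122 nt exon from 11374446 to 11374567 was included at 95.3%, 96.0% and 100% in wild type against at 92.5%, 91.7% and 91.3% in S34F (edgeR adjusted p = 0.271). The 109 nt exon from 11322680 to 11322788 was at 18.1% in wild type and 14.8% in S34F (edgeR adjusted p = 0.799), and a 55 nt exon from 11340836 to 11340890 was at 93.4% and 95.3% (edgeR adjusted p = 0.635). At the last tested ATG7 5′ splice site, 11468401, the annotated acceptor 11596284 took 76.4%, 87.1% and 83.9% in wild type against 81.7%, 93.1% and 91.9% in S34F, with overlapping groups (edgeR adjusted p = 0.501).

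Over the 4 genes, 58 exon forms had at least 20 reads in every library when every junction that spans an exon was counted as skipping it. In 38 of them inclusion was 95% or more in all 6 libraries: 7 of 9 in STRAP, 3 of 6 in CASP8, 13 of 18 in ATG7 and 15 of 25 in PICALM. A form could pair any annotated acceptor with any annotated 5′ splice site that closes an exon of at most 500 nt. Junctions inside a form were not counted against it. The 38 thus include a 305 nt CASP8 form and PICALM forms of 244 and 259 nt that span a used junction. Those forms count as included whether or not that junction was spliced. Junctions to a competing acceptor were not counted against a form either. The 117 nt and 132 nt PICALM forms, alternatives at the called acceptor pair, are thus both among the 38. The counts for CASP8 and PICALM therefore overstate constant exons. These inclusion levels describe the exons and were not tested. Most reads of the 5′ splice sites also went 1 way: the leading acceptor took at least 95% in every library at 8 of 9 sites with 20 reads in STRAP, 3 of 5 in CASP8, 8 of 16 in ATG7 and 15 of 19 in PICALM.

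**Figure D5:**
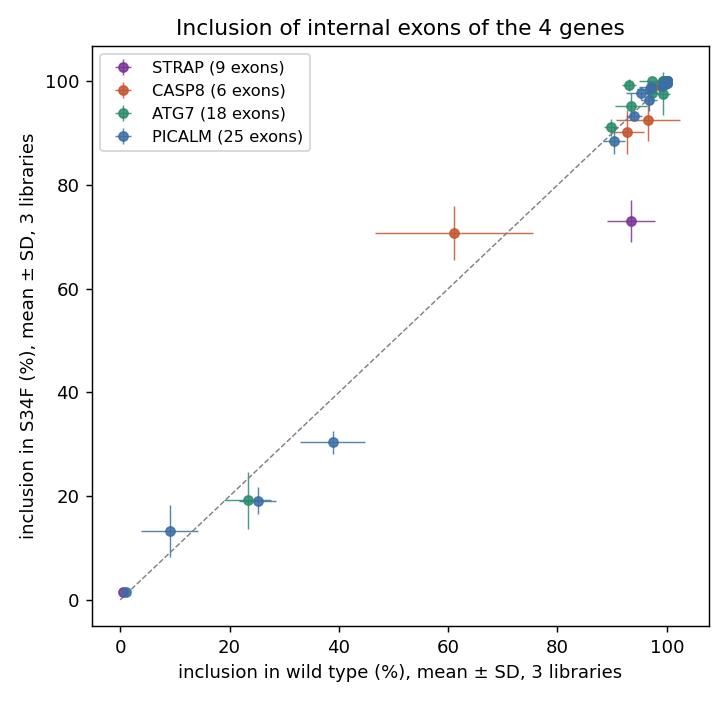
Inclusion (%) of the 58 exon forms of the 4 genes in S34F against wild type, with the mean ± SD of 3 libraries on both axes and a dashed line of equal inclusion. The 136 nt STRAP exon lies below the line at 93.4% and 73.1%, and the 45 nt CASP8 exon lies above it at 61.0% and 70.8% with a wide spread in wild type.

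Unannotated junctions carried little of these genes' reads. Of the 172, 7 had at least 20 unique reads over the 6 libraries, and the deepest had 34. They took 0.17% of the STRAP reads in wild type and 0.252% in S34F, 3.16% and 3.99% in CASP8, 3.03% and 3.04% in ATG7, and 0.413% and 0.396% in PICALM, from reads pooled over each group with no replicate error.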

How the data were processed

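Each library had 1 deposited table of splice junctions in the layout of STAR's junction output; STAR and hg19 are named in the submitters' processing notes, and the version, annotation and filters are not given in the sources used here. The deposited values are raw counts, made by the authors, of uniquely mapped and multi-mapped reads per junction; unique counts were used. The largest overhang of each junction served in 1 alternative. Tables were joined with Python 3.11.15 and pandas 2.3.3, and a missing junction counted as 0. Whole-series fits used edgeR 4.0.16 in R 4.3.3 (quasi-likelihood, robust, legacy mode). Fits of splice site choice modelled each library, the kind of count and the interaction of that kind with S34F. Their coefficient is the change in log2 odds. Junction levels were fitted on TMM-scaled counts with the group alone, and their coefficient is the log2 fold change. The SE is the coefficient over the square root of F. Use of 5′ splice sites at each acceptor was fitted like the other splice site choices, as an alternative added after seeing the data. Inclusion means were rounded for the fit. Alternatives used DESeq2 1.42.0 and limma 3.58.1. Fits were also run on simulated counts with known changes. The spread between simulated libraries was set and not estimated from these libraries, so that run does not bear on their variation. The genes, events and lists were chosen with earlier results of these data known. Events named were drawn from the called ones, the 3 largest differences per class and gene, sites with a mean share between 5% and 95%, and each gene's deepest junction. Not every event in these groups is printed, and acceptor usages were not always repeated where the exon is given. Replicate numbers did not pair the libraries. No genome of this build was at hand, so splice site sequences were not used here.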

Additional observations from a re-analysis of the deposited data

How the results depend on the processing

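With 4 acceptor usages called, the count was 2 at a minimum difference of 20 percentage points, 0 with limma on log2 odds and 1 to 6 when each library was left out in turn (1 without S34F replicate 3, where 77 were called in the whole series). With 1 competing pair called, it was 0 with limma, 2 with no read minimum, and 2 with reads summed over 5′ splice sites and a minimum of 10; that sum, chosen after seeing the data, also gave 2 with DESeq2, with the replicate block and without each library but 1 with limma, which kept CASP8 and lost PICALM, and at a minimum of 20 reads 0 with limma and 2 without wild-type replicate 3. With 1 cassette exon called, it was 2 with no minimum difference, 0 with limma, and 0 to 1 with a library left out. It was 0 without S34F replicate 2 and without S34F replicate 3, where 39 and 0 were called in the whole series. With 2 junction levels called, it was 6 with no low-count filter, which added 3 STRAP junctions and 1 of CASP8, and 0 to 2 with a library left out. The series count was 229 of 113065 in the main fit, 5138 of 218590 with no low-count filter and 0 to 591 with a library left out. The 2 junctions called by 5′ splice site usage, also added after seeing the data, stayed 2 in number with DESeq2 and the replicate block and ranged from 0 to 4 with a library left out. For gene totals the difference without single libraries ranged from -3.09 to 3.74 RPM in ATG7, from -51.6 to 27.6 in PICALM, from 2.15 to 4.46 in CASP8 and from -151 to -47.2 in STRAP.

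The replicate block left 4 acceptor usages, 1 competing pair and 1 cassette exon called and took the junction levels from 2 to 0. In the whole series that block took the called junction levels from 229 to 50. Same-numbered libraries did not deviate together: their correlations were -0.086, -0.0229 and -0.0364 in acceptor usage and -0.175, -0.146 and -0.0224 in junction levels. Depth limited CASP8 most, with 15 to 70 reads at its acceptor pair.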

Other observations

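Reads outside the measurements above were few. Junctions on the opposite strand of the windows held 1 unique read in STRAP, 2 in CASP8, 8 in ATG7 and 8 in PICALM over the 6 libraries. Junctions crossing an edge of the window held 1, 0, 7 and 4 unique reads in the same order of genes. Multi-mapped reads made up 2.83% of the spliced reads of STRAP, 8.75% of those of CASP8, 1.92% of those of ATG7 and 1.35% of those of PICALM. Relative to the unique spliced reads of each library, their groups overlapped in all 4 genes.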
